A study of Mus musculus with 4 samples.

Results

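The chemokines Cxcl1, Cxcl2, Cxcl3, Cxcl10 and Ccl20 were read by 6 probe sets, of 45101 on the array, in fetal livers of Stk40 KO and WT mouse embryos. They are the probe sets to which the authors' deposited table of 2-fold changes gives one of these 5 symbols and no other. A probe set is the group of short oligonucleotides that together measure one transcript, and Cxcl1 has a pair of them. The table lists 1467 probe sets whose mean intensity differed at least 2-fold between genotypes, so the 6 probe sets were chosen by the very intensities described here, and their difference was not tested. Any other probe set of these genes carries no name here and was not analysed.

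Chemokines are small secreted proteins that steer leukocytes along concentration gradients through receptors coupled to G proteins. In the mouse, Cxcl1, Cxcl2 and Cxcl3 bind Cxcr2 and draw neutrophils, Cxcl10 binds Cxcr3 and draws T cells and NK cells, and Ccl20 binds Ccr6 and draws lymphocytes and dendritic cells. Their genes are transcribed at a low rate until tumour necrosis factor, interleukin 1 or microbial products activate the transcription factor NF-κB, while Cxcl10 also answers to interferons through the interferon-stimulated response element (ISRE). The study asked which genes Stk40, a serine/threonine kinase, controls in the fetal liver, where most red blood cells of the fetus are made, and it linked the knockout to signalling by TNF-α.

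The tissue was whole fetal liver at E14.5 (embryonic day) on a C57BL/6J background, from matings of heterozygotes that carry a conventional deletion of Stk40 in all cells. RNA of 6 livers of one genotype was pooled for each array, with 2 arrays for Stk40 KO and 2 for WT, and the labels call the pools of a genotype biological replicates without stating their litters. In RNA of a whole organ, a larger share of chemokine-producing cells and more RNA per cell cannot be told apart. Intensities are linear values in arbitrary units, not scaled between arrays. Those under 0 arise where mismatched control oligonucleotides were brighter than the matched ones. An intensity of 143 served as the noise level, since 95% of the negative values are smaller in size, and 24.1% to 28.5% of the probe sets lay above it on each array. The Stk40 KO arrays were brighter, by a median of 0.19 on the log2 scale over 10721 probe sets that exceeded the noise level throughout. Over 37 bright control probe sets the median was 0.22. The 75th percentiles of positive values were 266 and 263 on the Stk40 KO arrays. On WT replicates 1 and 2 they were 205 and 246, so that WT replicate 1 was the dimmest array. Values are therefore given as deposited and after scaling the arrays to equal 75th percentiles of their positive values. The only named probe set of Stk40 gave -98.9 and -111 in the Stk40 KO pools against 59.9 and 52.2 in the WT pools, none of them above noise. Of the defining genes of erythroid cells and of hepatoblasts (12 looked up for each), the table names 0, so that the labelled tissue could not be checked by them.

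To show what the 5 genes share that the choice by intensity did not use, their promoters were read from RefSeq (build GRCm38.p6), which gives a window of 250 bases before to 50 after the start site for each of the 5. Stretches that hold the matches are printed 5′ to 3′ on the strand of the gene, with matches to the NF-κB consensus and to the ISRE-like letters GAAANNGAA in capitals. The stretches lie at chr5:90891125-90891224 (plus strand) for Cxcl1, chr5:90903779-90903878 (plus) for Cxcl2, chr5:90785981-90786080 (plus) for Cxcl3, chr5:92348950-92349109 (minus) for Cxcl10 and chr1:83116646-83116745 (plus) for Ccl20.
Cxcl1: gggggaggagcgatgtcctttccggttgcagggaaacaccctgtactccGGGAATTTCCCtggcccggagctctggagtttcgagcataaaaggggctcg
Cxcl2: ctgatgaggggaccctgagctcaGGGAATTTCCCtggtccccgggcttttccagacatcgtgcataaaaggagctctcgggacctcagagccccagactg
Cxcl3: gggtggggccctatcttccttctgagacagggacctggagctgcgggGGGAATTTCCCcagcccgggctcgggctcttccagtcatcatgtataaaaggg
Cxcl10: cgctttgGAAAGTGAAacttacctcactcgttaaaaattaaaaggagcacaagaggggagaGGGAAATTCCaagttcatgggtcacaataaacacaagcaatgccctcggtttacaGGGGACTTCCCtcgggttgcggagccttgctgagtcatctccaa
Ccl20: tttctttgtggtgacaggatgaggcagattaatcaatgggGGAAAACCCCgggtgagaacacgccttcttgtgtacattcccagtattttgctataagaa

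Every one of the 5 windows held the NF-κB consensus, against 8.46% of the 32851 windows of all genes (2779 windows). The 5 are chemokine genes of a kind known to be activated by NF-κB, as described above. Their share is therefore a description and was not tested. In Cxcl1, Cxcl2 and Cxcl3 the match was the same run of 11 bases, GGGAATTTCCC, which fits the consensus on both strands with overlapping sites. Counted from the start site, it began at -71 in Cxcl1, at -97 in Cxcl2 and at -73 in Cxcl3. Of all windows, 14 held these 11 bases on either strand (0.0426%). Of their genes, the authors' table names as up only Cxcl1, Cxcl2 and Cxcl3, and 0 as down. The run was taken from these same genes, so their place among the genes named as up carries no information. Cxcl10 had a match that began at -159 and 2 overlapping ones that began at -104 and -103. With overlapping sites counted separately, 1.22% of all windows held 2 or more sites. By that count Cxcl1, Cxcl2 and Cxcl3 were among these windows as well as Cxcl10. Ccl20 matched on the opposite strand only, from -80 to -71.

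Cxcl10 differed from the other four in its further motifs. The ISRE-like letters were found in its window alone among the 5, beginning at -213 (8.56% of all windows), and an AP-1-like TGANTCA began at -74 (7.81% of all windows). Both the NF-κB consensus and the ISRE-like letters occurred in 0.557% of all windows. The letters TATAAA were found in Cxcl3 alone (13.6% of all windows). Among windows of genes that the authors' table names, those of genes named as up include the 5 chemokines. The NF-κB consensus was present in 11.98% of these 835 windows and in 9.20% of 326 for genes named as down. These are matches of letters on either strand, and binding was not measured.

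**Figure D1:**
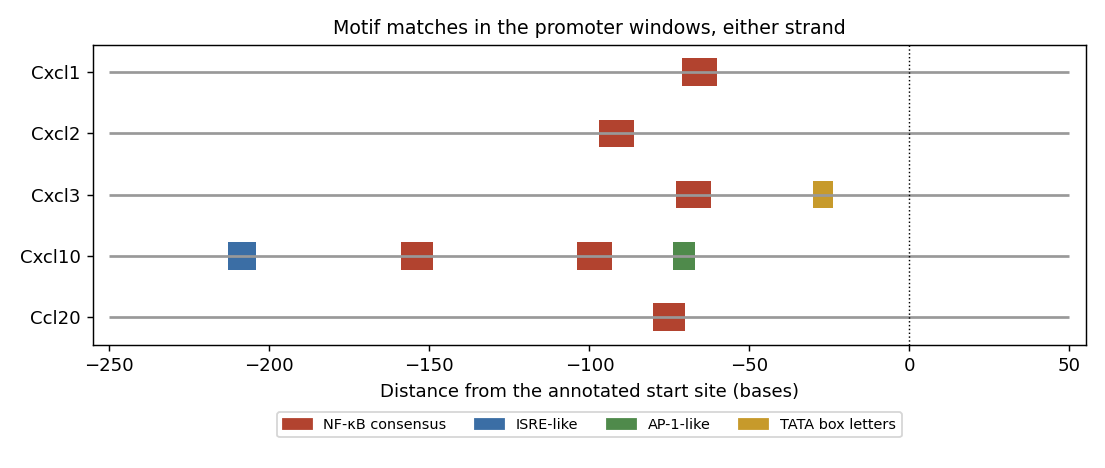
Matches to 4 motifs in the promoter windows of the 5 chemokines, by distance in bases from the annotated start site (dotted line). All 5 windows hold the NF-κB consensus at or after position -159, and only that of Cxcl10 holds the ISRE-like and AP-1-like letters.

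Cxcl1, Cxcl2, Cxcl3 and Cxcl10 lie on chromosome 5, and Ccl20 on chromosome 1. In the order of coding genes in GRCm38.p6, Cxcl1 and Cxcl2 are direct neighbours, Cxcl3 is set apart from Cxcl1 by Cxcl15 only, and 18 coding genes stand between Cxcl2 and Cxcl10. Of the 33 coding genes in this stretch with 5 more on either side, the authors' table names 5, which are the 4 chemokines and Btc, a ligand of the EGF receptor. Cxcl5, Ppbp, Pf4, Cxcl15 and Cxcl9, which are chemokine genes in the same stretch, are not named there and were not analysed.

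In both Stk40 KO pools, each of the 6 probe sets was brighter than in both WT pools, as deposited and with equal 75th percentiles. Such a gap between genotypes was common on these arrays, as 32.7% of 45037 probe sets showed it in the same direction as deposited and 16.6% with equal 75th percentiles. The 6 probe sets were listed because they met the fold rule of the methods, a ratio of genotype means of at least 2, which 3.80% of 32833 probe sets met upward as deposited and 2.49% with equal 75th percentiles. Downward it was met by 1.57% as deposited and by 2.22% with equal 75th percentiles. All 6 also met it with equal 75th percentiles. Of their 24 values, 5 lay above the noise level, 4 of them on Stk40 KO arrays and 1 on a WT array, and 3 probe sets had no value above it. Nearest to the threshold by that rule was Cxcl10, with a ratio of 2.35 as deposited and 2.06 with equal 75th percentiles, but with values raised to the noise level its ratio of 1.95 was the highest of the 6, and the order of the dimmer probe sets has no meaning. No chemokine just outside the threshold carries a name.

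**Figure D2:**
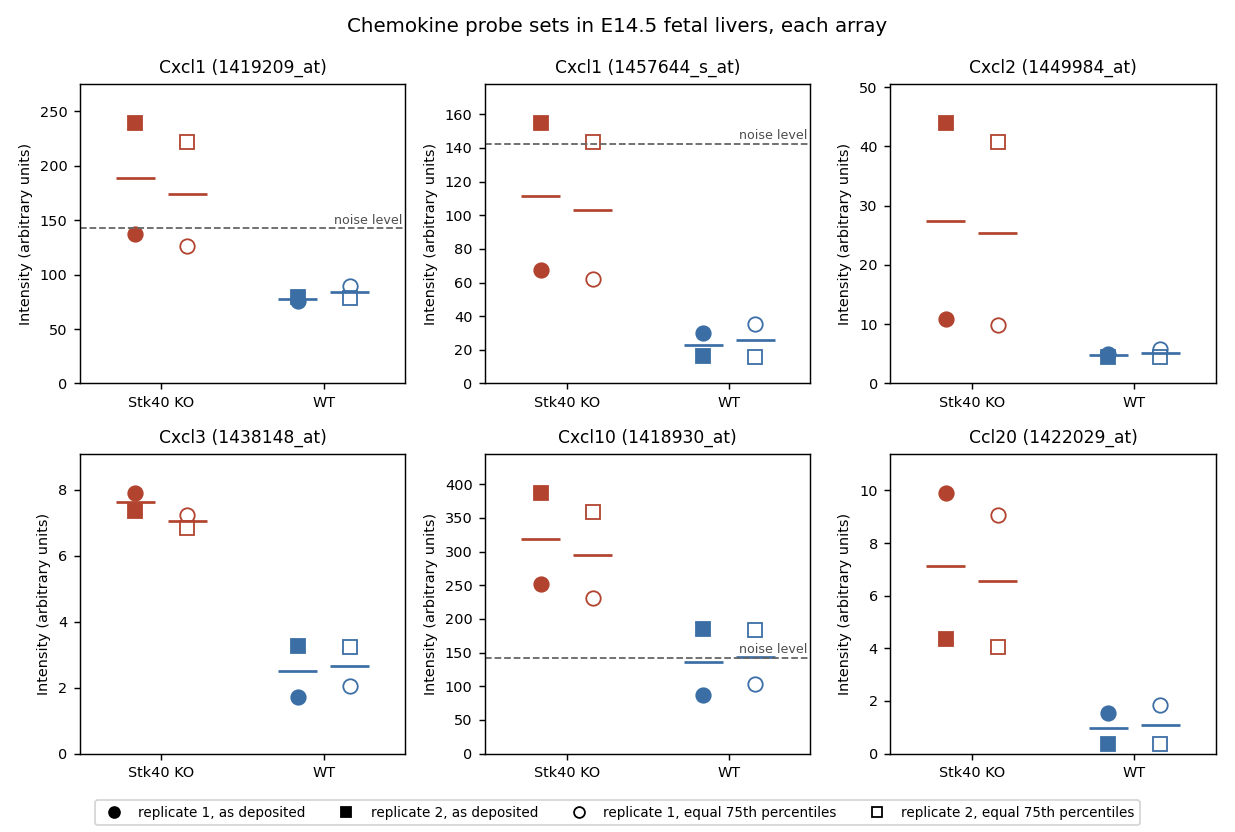
Intensity (arbitrary units, linear axis from 0, a different range in each panel) of the 6 chemokine probe sets on the 2 Stk40 KO and 2 WT arrays, as deposited (filled) and with equal 75th percentiles (open), with bars at the means of 2 arrays and a dashed line at the noise level of 143 where the range reaches it. Stk40 KO values lie above WT values in every panel, but Cxcl2, Cxcl3 and Ccl20 stay far under the noise level.

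Cxcl1, the mouse chemokine KC, was read by 1419209_at at 138 on Stk40 KO replicate 1 and 240 on Stk40 KO replicate 2, against 75.5 and 79.3 on the WT arrays. The WT arrays lay close together and under the noise level, and only Stk40 KO replicate 2 was above it. Set against the noise level, the mean log2 value of Stk40 KO is 1.27-fold higher, or 1.17-fold with equal 75th percentiles (126 and 222 against 89.6 and 78.5). Neither is a lower bound, since Stk40 KO replicate 1 is itself under the noise level. The means were 189 ± 72.1 and 77.4 ± 2.70 (SD, n = 2 arrays each), so that the Stk40 KO pools differed from each other by 102, nearly as much as the genotypes did (111).

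The other Cxcl1 probe set, 1457644_s_at, had 67.6 and 155 in Stk40 KO against 29.7 and 16.2 in WT. Its suffix marks a design whose probes fit more than one transcript, so that related transcripts could add to its signal. Again only Stk40 KO replicate 2 exceeded the noise level, and again the higher Stk40 KO value was that of replicate 2. Because the Stk40 KO mean of 111 ± 61.8 is itself under the noise level (WT 23.0 ± 9.58, n = 2 arrays each), no fold is given.

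Cxcl2, the chemokine MIP-2, had an intensity of 10.8 on Stk40 KO replicate 1 and 44.0 on Stk40 KO replicate 2, against 4.91 and 4.55 in WT. The Stk40 KO pools were thus further apart (33.2) than the genotype means (22.7), and replicate 1 was 5.91 above the higher WT value. Cxcl3, the third ligand of Cxcr2 here, had 7.91 and 7.36 in Stk40 KO against 1.73 and 3.27 in WT. Its pools differed by 0.545 within Stk40 KO and by 1.55 within WT, with a genotype difference of 5.14, all at intensities near 0.

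Cxcl10, also known as IP-10, was the only one of the 5 genes above the noise level on both Stk40 KO arrays, at 251 and 387, against 87.2 and 185 on WT replicates 1 and 2. WT replicate 2 was above the noise level and WT replicate 1 below it, and the lowest Stk40 KO value exceeded the highest WT value by 66.5. The means were 319 ± 96.1 in Stk40 KO and 136 ± 68.9 in WT (SD, n = 2 arrays each), a difference of 183, while the pools of one genotype differed by 136 in Stk40 KO and by 97.5 in WT. With equal 75th percentiles the values were 230 and 359 in Stk40 KO against 104 and 183 in WT. Cxcl10 is also the only one of the 6 probe sets that passed the filter for the test by limma, which needs 2 arrays above the noise level.

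Ccl20, the ligand of Ccr6, had 9.91 and 4.36 in Stk40 KO against 1.55 and 0.364 in WT. Here Stk40 KO replicate 1 was the higher one. The genotype difference was 6.18 and the gap between the lowest Stk40 KO value and the highest WT value was 2.82.

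The size of these differences was set against the difference between pools of one genotype over all probe sets of like intensity. A genotype difference is one of means of 2 arrays, and a pool difference is one of single arrays. Single arrays vary more than means, so the sizes are compared only roughly. Among the 10165 probe sets with a mean from 0 to 25, which include Cxcl2, Cxcl3 and Ccl20, the 2 Stk40 KO arrays differed by a median of 4.27 and the 2 WT arrays by 4.64, with 95th percentiles of 16.7 and 19.2. The genotype differences of Cxcl3 and Ccl20 lie between these medians and percentiles, and that of Cxcl2 lies above them. In this class 11.1% of 7717 probe sets met the fold rule upward, and 25.9% of all had both Stk40 KO values above both WT values. Among the 12791 probe sets with a mean from 25 to the noise level, which include both of Cxcl1, the pools differed by a median of 8.09 in Stk40 KO and 12.6 in WT, with 95th percentiles of 30.6 and 40.9. The Cxcl1 differences of 111 and 88.4 exceeded these, as did the difference between its own Stk40 KO pools, and 1.87% of 12733 probe sets of this class met the fold rule upward, while 47.1% had both Stk40 KO values above both WT values. Above the noise level, where Cxcl10 lies, these shares were 0.494% of 12147 and 44.9% of 12149. The Cxcl10 difference of 183 lies between the median difference of pools there (29.6 in Stk40 KO and 83.5 in WT) and its 95th percentile (203 and 525). From the dimmest to the brightest class, the 95th percentile of the genotype difference itself (Stk40 KO minus WT) was 11.4, 37 and 339. Its median was 1.68, 10.1 and 53.4, all as deposited and so with the brighter Stk40 KO arrays included.

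**Figure D3:**
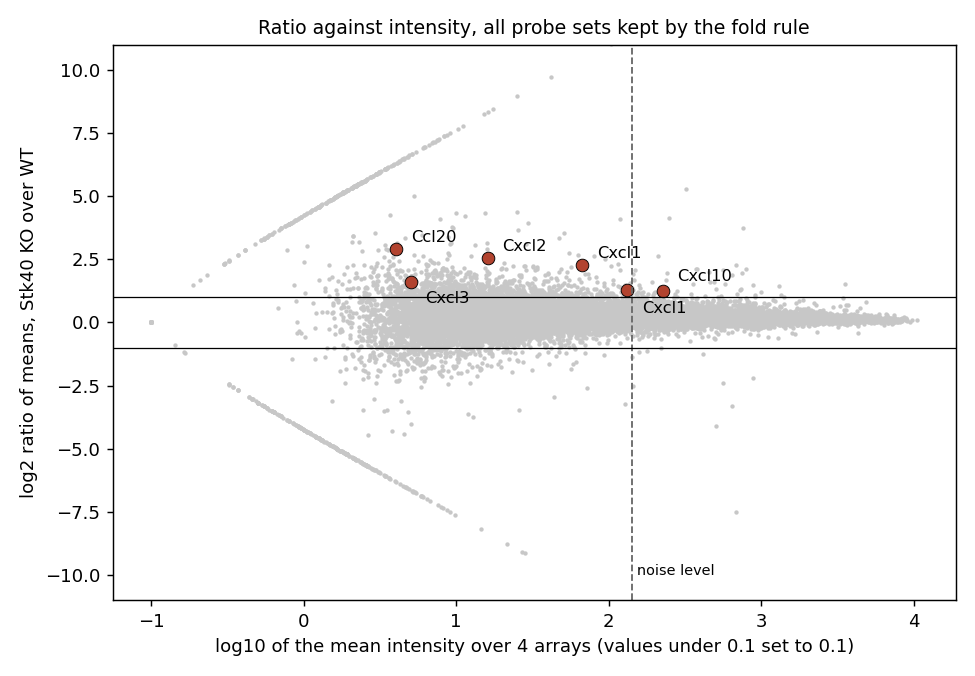
Log2 ratio of genotype means (Stk40 KO over WT, values under 0.1 set to 0.1) against log10 mean intensity over the 4 arrays, for all 32833 probe sets kept by the fold rule (grey) and the 6 chemokine probe sets (red). Horizontal lines mark a 2-fold ratio and the dashed line the noise level, and the 3 dimmest chemokine probe sets sit where wide ratios are frequent.

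Stk40 KO replicate 2 carried the higher value for 4 of the 6 probe sets, both of Cxcl1, Cxcl2 and Cxcl10. It was at least 2 times replicate 1 for 2 of them, Cxcl2 and the dimmer Cxcl1 probe set. Over all probe sets that met the fold rule upward, Stk40 KO replicate 2 was the higher in 65.7% and at least 2 times replicate 1 in 19.2% of 1247. Without Stk40 KO replicate 2 the ratio of Cxcl1 by 1419209_at was 1.78 and that of Cxcl10 was 1.85, both under 2, and with equal 75th percentiles they were 1.5 and 1.61. Cxcl10 rested on WT replicate 1, the dimmest array, as well, with a ratio of 1.73 without it and 3.66 without WT replicate 2. With equal 75th percentiles these ratios were 1.61 and 2.85. At equal 75th percentiles, leaving out Stk40 KO replicate 2 also put Cxcl2 under 2, at 1.92, and leaving out WT replicate 2 put Cxcl1 by 1419209_at there, at 1.94.

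**Figure D4:**
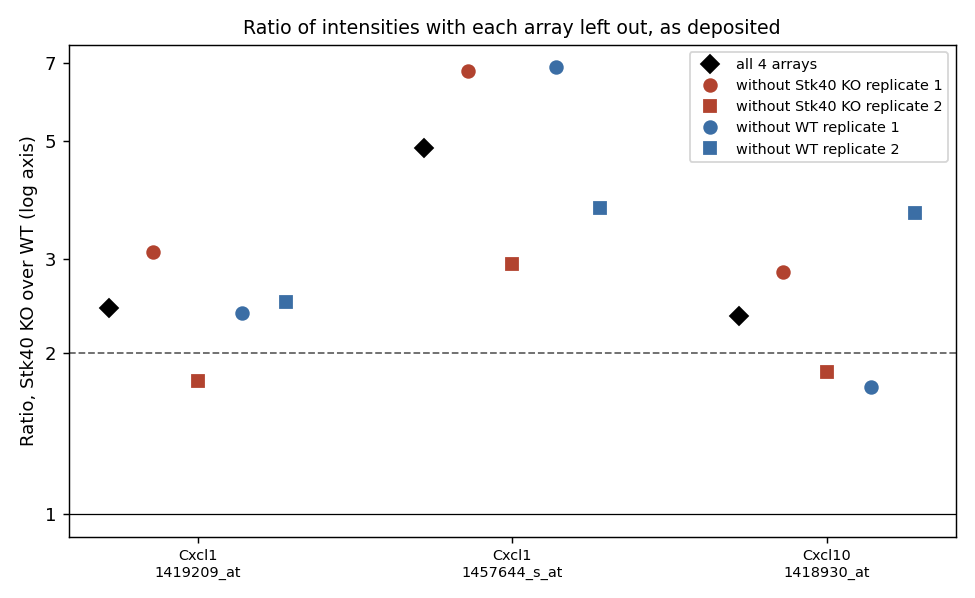
Ratio of mean intensities, Stk40 KO over WT (log axis, as deposited), for the 3 chemokine probe sets with a value above the noise level, over all 4 arrays (diamonds) and with each array left out. The dashed line marks a ratio of 2, under which Cxcl1 by 1419209_at falls without Stk40 KO replicate 2, and Cxcl10 without Stk40 KO replicate 2 or WT replicate 1.

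Only the authors' table names probe sets, so the other chemokine genes could be looked up only where they had met the fold rule. That the named ones differ between genotypes follows from this rule, which acts in either direction. Of 6 CXC ligands that attract neutrophils, the table names 3, which are Cxcl1, Cxcl2 and Cxcl3. Of 9 other CXC ligands it names Cxcl10, Cxcl13 and Cxcl16, of 22 CC, C and CX3C ligands Ccl20 and Ccl6, and of 23 receptors 1, the scavenging receptor Ackr2. All of these were named as up and 0 as down. On the deposited intensities most calls of the rule over all probe sets were upward anyway, 1247 against 516. Once the arrays were scaled, the split was 817 upward against 728 downward. The shared direction of the named chemokines and Ackr2 was not tested, and nothing is read from it. Among the named ligands Ccl6, a myeloid chemokine, had 149 and 169 in Stk40 KO against 50.3 and 60 in WT by 1417266_at. Against the noise level it was at least 1.11-fold higher in Stk40 KO as deposited. With equal 75th percentiles the value was 1.02-fold, which is no lower bound, since only 1 Stk40 KO array exceeded that level. Its Stk40 KO pools differed by 20.1 and its WT pools by 9.73, and the groups did not overlap. Its other probe set, 1420249_s_at, had 64.1 and 78.2 against 34.0 and 33.2, all under the noise level, and its ratio was 1.79 with equal 75th percentiles. Cxcl13, which attracts B cells, had 10.2 and 16.3 against 4.64 and 7.45, and Cxcl16, a ligand of Cxcr6, had 13.6 and 11.9 against 6.55 and 4.45. Cxcl13 and Cxcl16 also fell short of a 2-fold ratio with equal 75th percentiles (1.90 and 1.93). The receptor Ackr2 had 1.73 and 3.36 against 1.09 and 0.545, all near 0. In limma with equal 75th percentiles, which called 1.19% of 12319 probe sets up and 0.666% down at an adjusted p of 0.05, the chemokine ligands and receptors had 1 tested probe set, that of Cxcl10, so that the family has no result of its own beyond the values above. On intensities as deposited limma called 2.25% of 12600 up and 0.0873% down, and 1417266_at of Ccl6 was tested there as well.

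Upstream genes were looked up in the same way. Of 21 inducing cytokines and their receptors, the table names 2 as up, Ltb and Ifngr2, and it names 0 of 15 NF-κB subunits and feedback regulators. Ltb, a membrane-bound relative of TNF, had 3.45 and 23.9 in Stk40 KO against -7.64 and -4.27 in WT, with the higher value on Stk40 KO replicate 2. Ifngr2, a chain of the interferon-γ receptor, overlapped between genotypes by 1423557_at, with 47.7 and 19.7 against 3.91 and 23.5. By 1423558_at it did not overlap as deposited, with 20.4 and 28.9 against 0.364 and 18.9. With equal 75th percentiles, Ifngr2 overlapped by both probe sets. Of 20 interferon response genes it names 2, one of them as down. The proteasome subunit Psmb8 had 14.1 and 5.82 in Stk40 KO against 18.7 and 39.1 in WT. Tap1, a peptide transporter, had 91.4 and 3.82 against 2.91 and 1.64 by 1420274_at, and -3.18 and -2.64 against 3.64 and 4.45 by 1449803_x_at, so that its named probe sets pointed in opposite directions. All of these values are under the noise level.

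Genes that mark leukocytes and stroma were also among those named by the table. Of 15 neutrophil genes the table names 4, all up (Ngp, Camp, Ltf and Mmp8), with a summed intensity of 3209 and 4683 in Stk40 KO against 1516 and 1564 in WT. With equal 75th percentiles 3 of these 4 met the fold rule, as Camp fell short at 1.96. Over all probe sets the rule was met upward by 3.80% as deposited, but the named genes were listed because they met it, and nothing is read from their number. Of 15 macrophage and monocyte genes it names 2, Cd163 and Marco, with sums of 107 and 79.8 against 21.7 and 32.4, all of their values under the noise level. Of 12 endothelial and stromal genes it names Col1a1 and Des, with sums of 738 and 875 against 363 and 386, and only Des met the rule with equal 75th percentiles. Of 11 lymphoid and dendritic genes it names 1, Il7r, as down, with 0.818 and 0.727 against 0.273 and 3.73, and it names 0 of 8 megakaryocyte genes. The part of these cells in the chemokine values was not tested.

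Likeness of pattern was measured as the distance between log2 profiles over the 4 arrays, centred for each probe set and at equal 75th percentiles, among the 76 named probe sets that passed the filter for limma. All 76 are in the table of 2-fold changes, and the nearest were picked for likeness, so a shared direction carries no information. Nearest to Cxcl1 by 1419209_at were 1100001G20Rik (distance 0.187), Ifitm6 (0.206) and Camp (0.250), the last of which encodes a neutrophil granule peptide. Camp had 1169 and 1621 in Stk40 KO against 567 and 645 in WT. Nearest to 1457644_s_at were Fbp1 (0.679), an enzyme of gluconeogenesis, and both a brighter and a dimmer probe set of Cp (0.837 and 0.901), and no named profile lay as close to it as to the other Cxcl1 probe set. Nearest to Cxcl10 were the protease gene Prss23 (0.449), Hamp (0.466), which encodes the iron hormone hepcidin, and the macrophage scavenger receptor Msr1 (0.473). With 4 arrays these distances are a description only.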

How the data were processed

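RNA of 4 pools of 6 fetal livers was hybridized to Affymetrix mouse genome arrays. The authors deposited linear intensities, and the submitters' processing notes name MAS5, without a version. Of the values, 99.9% are multiples of 1/11 within 0.001, and no scaling between arrays is stated. The authors' table of 2-fold changes gave gene symbols (1 symbol for 1418 of 1467 probe sets). Its means and ratios were not used, and whether a named gene was up or down was computed from the array intensities by the fold rule. The fold rule of the methods dropped probe sets negative on all arrays or inconsistent within a genotype, raised values under 0.1 to 0.1 and took a 2-fold change. Inconsistent was read here as of opposite sign, and the fold as a ratio of linear means. Genes found in both directions, which the methods removed, were kept. So read, the rule called 1763 probe sets, of which 1466 are among the 1467 of the table and 297 are not. The study's methods name no array test, so all probe sets were tested with limma 3.58.1 (R 4.3.3) on log2 intensities at equal 75th percentiles, floored at the noise level, where 2 or more arrays exceeded it (12319 probe sets), with Benjamini-Hochberg adjustment. The number of arrays, 2 per genotype, limits the precision. Chemokines, 15 gene lists and tests were chosen with earlier results of these data known. Named were Stk40, all probe sets of the 5 genes, other named chemokine ligands and receptors, up to 4 genes per list and the 3 nearest profiles. Scripts were tested on simulated data. Promoters are RefSeq GRCm38.p6, and 5 of 5 genes matched by symbol. Alternatives covered scaling, floors, filters, fold thresholds, omission of single arrays, the methods' t-test and the replicate block.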

Additional observations from a re-analysis of the deposited data

How the results depend on the processing

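Signal over background is the limit of these chemokines. With every value raised to the noise level, 0 of the 6 probe sets met the fold rule (Cxcl10 came nearest, at 1.95), and with values raised to the median size of negative values (15.1) 3 did, both of Cxcl1 and that of Cxcl10. The count was 5 after quantile normalization, where Ccl20 fell to the sign filter, and 4 at a threshold of 3. It was 6 at a threshold of 1.5 or with opposite signs kept, and 4 to 6 with each array left out as deposited. With equal 75th percentiles, a combination chosen after seeing the data, it was 3 without Stk40 KO replicate 2, 5 without either WT replicate and 6 without Stk40 KO replicate 1.

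The fold rule called 1247 probe sets up and 516 down over all probe sets. It called 817 and 728 with equal 75th percentiles, 782 and 781 after quantile normalization, 40 and 8 when floored at the noise level, 298 and 40 with the floor at the median size of negative values, 2816 and 2112 with opposite signs kept, 3933 and 966 at a threshold of 1.5 and 501 and 327 at 3. Leaving out each array gave 1397 to 3928 up and 1092 to 1569 down. The filter for opposite signs cannot act on a genotype left with 1 array. These counts therefore mix the loss of that filter with the loss of the array.

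With limma, 147 were up and 82 down. There were 284 and 11 on intensities as deposited, 238 and 163 with the lower floor, 212 and 200 with all 4 arrays above the noise level, 103 and 53 without the trend and 5 and 1 by the methods' t-test. With the replicate number as a block there were 597 up and 750 down. Differences of replicate 1 and replicate 2 correlated at 0.24 between genotypes across 12319 probe sets, which are not independent, and the samples share only a number. Leaving out each array gave 102 to 463 up and 121 to 312 down. Of the chemokine family 0 were called at equal 75th percentiles, and 1, Cxcl10, on intensities as deposited, with the lower floor, with the block and without any 1 array except Stk40 KO replicate 2 (0 to 1). Since Cxcl10 was chosen by this contrast, these calls do not support its difference. The fit without a filter on low values could not be made, because most values then equal the floor.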
